A study of Rattus norvegicus with 9 samples.

Results

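The collagens of the cartilage fibril and its immediate surroundings were examined in rat knee cartilage: Col2a1, Col9a1, Col9a2, Col9a3, Col11a1, Col11a2, Col10a1 and Col27a1. The 8 genes were taken by name from the 32043 genes of the deposited expression table, and each name occurred there a single time. RNA sequencing covered 9 libraries, 3 in each of 3 groups. All groups came from male Sprague–Dawley rats that were 8 weeks old at purchase, and were sampled 8 weeks after the operation. The control group had the left joint capsule opened and sutured. The model group, here for knee osteoarthritis (KOA), underwent the modified Hulth operation, which destabilizes the knee by loss of its medial meniscus and of ligaments, and the methods include daily forced exercise in making this model but do not give it for the control. The SYD-H group was made a KOA model in the same way, followed by 4 weeks of Shengyu decoction (SYD), a herbal mixture, by gavage at the highest dose of the study. The sample titles put these libraries under the decoction without a dose, while their library and column names carry the code CXTB, which the sources used here do not explain. The study also had a celecoxib group, shortened to CXB, so the identity of this group rests on the titles. The labels do not say whether the libraries of a group came from separate animals or from pools, so p-values here measure the spread between libraries, which may be technical.

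Cartilage owes its tensile strength to thin heterotypic fibrils. Type II collagen, a homotrimer of the Col2a1 chain, makes up most of the fibril, and type XI collagen, built in cartilage from the Col11a1 and Col11a2 chains together with a Col2a1 product, sits inside it and limits its diameter. Type IX collagen is a heterotrimer of Col9a1, Col9a2 and Col9a3 that coats the fibril surface and links it to other matrix proteins. Type X collagen, the product of Col10a1, is a short-chain network collagen of hypertrophic chondrocytes, and type XXVII collagen, from Col27a1, is a thin fibrillar collagen found where cartilage is turned over and mineralized. Sox9, with Sox5 and Sox6, drives transcription of the cartilage collagens, and Runx2 drives that of Col10a1.

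Expression was given as FPKM, fragments scaled by gene length and by a library size. Each FPKM multiplied by the listed gene length fell on whole multiples of a single step in every library, which returned between 14914121 and 19510537 reads in genes per library. The library size behind the FPKM was 2.01 to 2.18 times these reads in the control libraries but 0.193, 1.44 and 0.343 times in model libraries 1, 2 and 3 and 1.65, 1.46 and 0.609 times in SYD-H libraries 1, 2 and 3. Reads of mitochondrial genes took a larger share as this factor fell below its control values. They took 4.05% to 4.86% of the reads in control, 90.7%, 39.5% and 81.3% in model and 23.7%, 34.7% and 72.7% in SYD-H tissue, which left between 1744769 and 17373645 reads in other genes. The part of this gap in the results was not tested, and fold changes were also computed on values that sum to the same total in each library (TPM). All 8 collagens passed the filter on low values, a mean of at least 0.5 FPKM over the 9 libraries, as did 13898 genes in all.

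The tissue label was checked against 9 chondrocyte markers. All 9 were detected in the control libraries, but Matn3 and Epyc were at 0 in model libraries 1 and 3 and in SYD-H library 3, and Cnmd was at 0 in model library 2. Summed over the list, the markers reached 1698, 56.7 and 883 FPKM in the control, 269, 82.2 and 79.9 FPKM in the model and 497, 281 and 37.8 FPKM in the SYD-H libraries, in the order of their numbers. Markers of marrow and bone were also abundant. The 6 erythroid markers summed to 6497, 16153 and 7893 FPKM in the control, 38136, 296 and 42429 FPKM in the model and 1308, 1873 and 13551 FPKM in the SYD-H libraries, and the 8 osteoblast markers to between 1696 and 14033 FPKM. Control library 2 stood apart from the other controls. It was the lowest of the 3 for 8 of 8 cartilage collagens and 9 of 9 chondrocyte markers and the highest for 6 of 6 erythroid and 7 of 8 neutrophil markers. It was also the lowest for 8 of 8 osteoblast, 6 of 6 osteoclast and 6 of 7 macrophage markers, so that its low values were not limited to cartilage genes. Model library 2 was the lowest of its group for all 6 erythroid and the highest for all 6 osteoclast markers. The share of these tissues in the collagen differences was not tested, and in bulk tissue fewer chondrocytes and less collagen RNA per chondrocyte cannot be told apart.

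**Figure D1:**
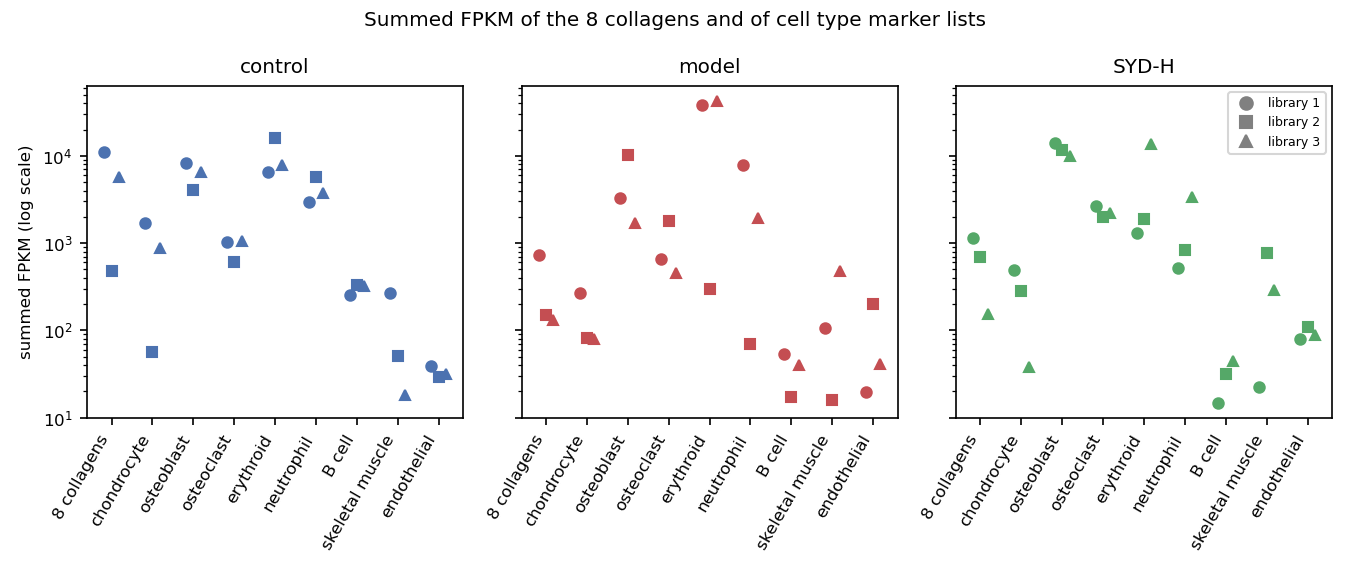
Summed FPKM (log scale) of the 8 cartilage collagens and of marker lists for 8 cell types, by group, with each symbol a library. The collagens and the chondrocyte markers were lowest among the controls in library 2, at 56.7 FPKM for the chondrocyte list, while its erythroid list was at 16153 FPKM.

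Reference promoters were available for 6 of the 8 genes, and 4 of them are shown because Col9a1 and Col9a2 encode chains of the same trimer and Col11a2 and Col10a1 were the ones with any match to the motifs searched. Each is the 250 bases before the annotated start in the RefSeq annotation of rat assembly GRCr8, written 5′ to 3′ along the gene.
Col9a1, chr9:34081114-34081363, plus strand: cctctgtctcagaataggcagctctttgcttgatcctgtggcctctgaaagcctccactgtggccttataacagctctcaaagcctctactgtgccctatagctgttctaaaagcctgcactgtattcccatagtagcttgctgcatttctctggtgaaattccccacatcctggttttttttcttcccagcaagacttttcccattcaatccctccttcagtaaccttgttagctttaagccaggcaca
Col9a2, chr5:139892548-139892797, plus strand: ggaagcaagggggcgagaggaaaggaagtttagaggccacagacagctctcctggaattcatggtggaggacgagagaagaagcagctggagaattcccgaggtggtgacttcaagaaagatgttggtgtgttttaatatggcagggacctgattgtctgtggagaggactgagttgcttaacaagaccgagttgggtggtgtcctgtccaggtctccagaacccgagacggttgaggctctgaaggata
Col11a2, chr20:4817649-4817898, minus strand: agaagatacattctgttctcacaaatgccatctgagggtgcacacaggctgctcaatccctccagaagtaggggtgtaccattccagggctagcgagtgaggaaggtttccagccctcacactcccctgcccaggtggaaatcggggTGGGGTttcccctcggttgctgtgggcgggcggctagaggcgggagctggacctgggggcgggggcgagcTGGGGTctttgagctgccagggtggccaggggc
Col10a1, chr20:39737286-39737535, plus strand: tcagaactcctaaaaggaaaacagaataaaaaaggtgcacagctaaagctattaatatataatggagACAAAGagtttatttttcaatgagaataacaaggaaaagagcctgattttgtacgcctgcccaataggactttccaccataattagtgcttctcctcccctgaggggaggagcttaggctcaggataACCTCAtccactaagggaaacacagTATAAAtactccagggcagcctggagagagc
Capitals mark matches to 4 motifs read on both strands: the TATA box TATAAA, the Sox-type motifs ACAAAG and AACAAT, and the Runx-type motif TGNGGT. Col10a1 held TATAAA at 31 to 26 bases and ACAAAG at 183 to 178 bases before its start, and TGNGGT on the minus strand at 56 to 51 bases. Col11a2 held TGNGGT at 103 to 98 and at 33 to 28 bases. No match lay in the promoters of Col9a1, Col9a2, Col11a1 or Col27a1. Among 33469 promoters of this length, TATAAA was in 12.9%, ACAAAG in 16.3%, AACAAT in 10.3% and TGNGGT in 41.0%, so that such matches were common. A match describes letters and not a bound site.

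Col2a1 was the most abundant of the 8 genes per length in 7 of 9 libraries. The 8 collagens together took 10.4%, 0.501% and 5.77% of all reads in control libraries 1, 2 and 3, 0.0662%, 0.135% and 0.0220% in model libraries 1, 2 and 3 and 0.970%, 0.509% and 0.0563% in SYD-H libraries 1, 2 and 3. Control library 2 thus held a collagen share below that of SYD-H libraries 1 and 2. Each model share lay below each control share on this scale. Of the reads outside mitochondrial genes, the collagens took 10.9%, 0.526% and 6.01% in the control, 0.714%, 0.223% and 0.118% in the model and 1.27%, 0.780% and 0.206% in the SYD-H libraries, and model library 1 then lay above control library 2.

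**Figure D2:**
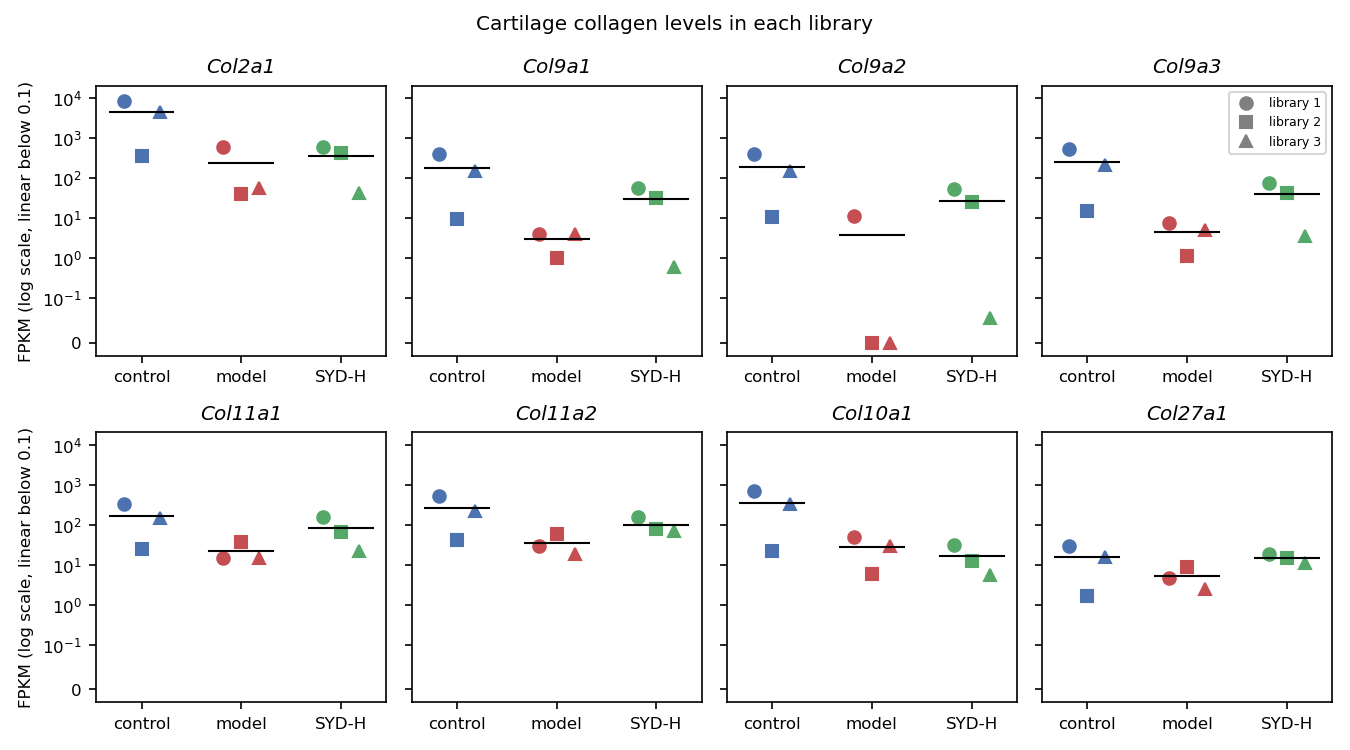
FPKM of each cartilage collagen in the 9 libraries (log scale, linear below 0.1 so that 0 can be drawn), with symbols for library numbers and a black line at the group mean. Control library 2 was the lowest control for every gene, and Col9a2 was at 0 in model libraries 2 and 3.

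Col2a1, the chain of the fibril core (ENSRNOG00000058560, chromosome 7, 129098786 to 129127546, in the coordinates of the deposited table, whose rat build is not given in the sources used here), was at 8323, 348 and 4468 FPKM in control libraries 1, 2 and 3. The model values were 606, 39.0 and 56.1 FPKM, and those of SYD-H were 609, 430 and 42.4 FPKM. Model library 1 and SYD-H libraries 1 and 2 lay above control library 2, so the groups overlapped. The means were 4380 ± 3988 FPKM in the control, 234 ± 322 FPKM in the model and 360 ± 290 FPKM in the SYD-H group (SD, n = 3 each). These rested on 60783 to 1184671 reads per control library and on 1768 to 10442 per model library, so counting error was small beside the spread between libraries.

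The question of the model against control comparison was what changed with the KOA model, in which operation and forced exercise cannot be told apart. On the log2(FPKM + 1) scale all 8 collagens had lower means in the model, with a median log2 fold change of -3.70 beside -0.23 over all genes tested. By the criteria of the study, an unadjusted p under 0.05 with an absolute log2 fold change over 1 (DEG), 6 of 8 collagens were lower, against 11.2% of all genes tested. Col2a1 had a log2 fold change of -4.40 (SE 1.53, 95% interval -8.11 to -0.69). Its Benjamini–Hochberg adjusted p was 0.193, and the adjusted p of the 8 genes ran from 0.128 to 0.617, so that 0 of 8 passed 0.05 after limma adjustment over all genes, which 2.59% of all genes did. The call of Col2a1 was lost without control library 1, control library 3, model library 2 or model library 3, with log2 fold changes between -5.77 and -3.49 over the 6 libraries left out in turn.

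**Figure D3:**
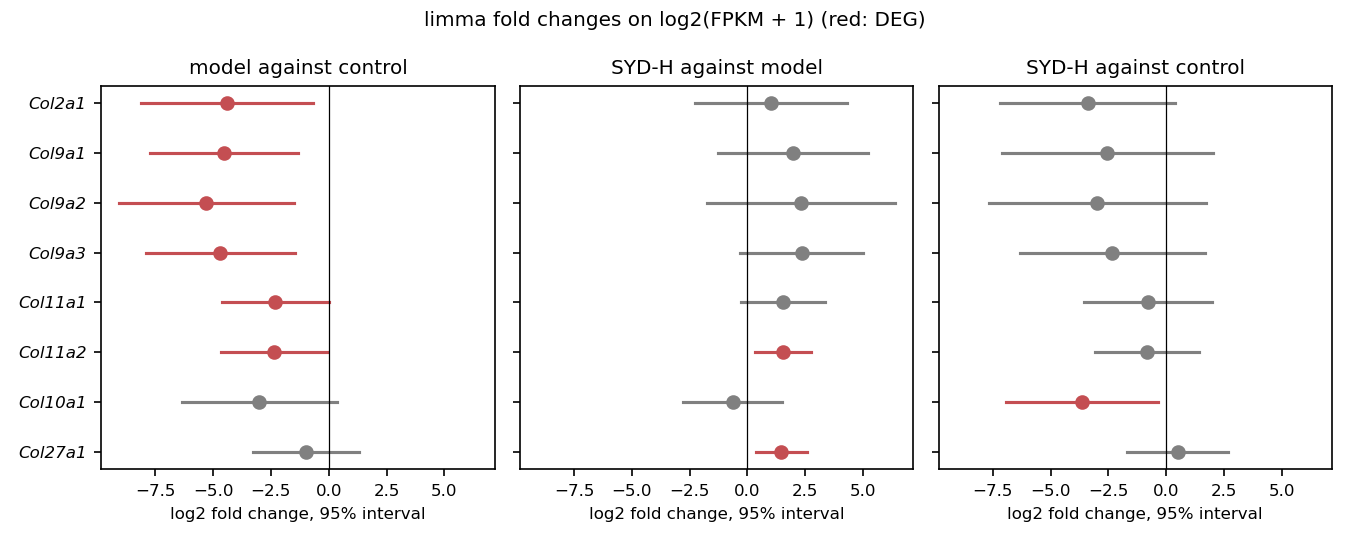
Log2 fold changes of the 8 collagens with 95% intervals from limma on log2(FPKM + 1), for the 3 comparisons, with DEGs in red. All 8 points lie below 0 for model against control, and 7 of 8 lie above 0 for SYD-H against model, where Col10a1 lies below on this scale and at 0.99 on TPM. For SYD-H against control 7 of 8 lie below, where Col27a1 lies above on this scale and at -0.87 on TPM.

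The chains of type XI collagen had smaller fitted differences than Col2a1 in model against control, but relative to Col2a1 within a library their values overlapped between these groups. Col11a1 (ENSRNOG00000023148, chromosome 2, 201820715 to 202013853) was at 319, 24.1 and 146 FPKM in the control, 14.9, 37.2 and 14.9 FPKM in the model and 157, 64.7 and 21.2 FPKM in the SYD-H libraries. Col11a2 (ENSRNOG00000000463, chromosome 20, 4786929 to 4815985) was at 505, 42.2 and 218 FPKM in the control, 28.9, 59.1 and 18.3 FPKM in the model and 153, 78.5 and 70.0 FPKM in the SYD-H libraries. Model library 2 was the highest of its group for both genes and lay above control library 2. The model against control log2 fold change was -2.31 (SE 0.95, adjusted p = 0.260) for Col11a1 and -2.37 (SE 0.94, adjusted p = 0.244) for Col11a2. Both were DEGs, and both calls were lost in 5 of the 6 fits with a library left out, being kept only without control library 2, at log2 fold changes of -3.35 and -3.35. Both were also lost at a pseudocount of 0.01, with no filter on low values and with the replicate number as a block, and Col11a1 at a pseudocount of 0.1.

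All 3 SYD-H libraries lay above all 3 model libraries for Col11a2 and for Col27a1, which was so for 7.89% of all genes tested. These were the 2 DEGs of the SYD-H against model comparison, both higher, where 3.62% of all genes tested were higher DEGs. Col11a2 had a log2 fold change of 1.55 (SE 0.51, 95% interval 0.33 to 2.77), and that of Col11a1 was 1.53 (SE 0.75, interval -0.28 to 3.34), short of a call. The adjusted p of both was 0.723, the smallest of any gene in that comparison, so that 0 of 13898 genes passed an adjusted p of 0.05 while 5.26% had an unadjusted p under it. The Col11a2 call was lost with all 9 libraries in one fit and without model library 1, model library 3 or SYD-H library 1, with log2 fold changes from 1.17 to 1.99 over the libraries left out.

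The 3 genes of type IX collagen were all DEGs in model against control. Col9a1 (ENSRNOG00000012920, chromosome 9, 26585034 to 26668213) was at 393, 9.45 and 148 FPKM in the control, 4.10, 0.986 and 4.07 FPKM in the model and 57.4, 32.1 and 0.604 FPKM in the SYD-H libraries. Col9a3 (ENSRNOG00000009531, chromosome 3, 167711840 to 167734465) was at 532, 14.8 and 217 FPKM in the control, 7.44, 1.16 and 4.94 FPKM in the model and 74.6, 41.2 and 3.56 FPKM in the SYD-H libraries. For these genes each model library lay below each control library, which made 2 of 8 collagens beside 20.0% of all genes tested, a share near that background. Col9a2 (ENSRNOG00000011502, chromosome 5, 134607616 to 134624677) was at 394, 10.9 and 153 FPKM in the control, 11.0, 0 and 0 FPKM in the model and 53.8, 24.7 and 0.0558 FPKM in the SYD-H libraries. Its highest model value, 11.03 FPKM, lay just above its lowest control value, 10.94 FPKM.

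SYD-H library 3 departed from SYD-H libraries 1 and 2 for all 3 chains, with 28, 2 and 106 reads for Col9a1, Col9a2 and Col9a3, where library 1 had 6141, 4453 and 5122. The model libraries held 60 to 109 reads of Col9a1 and 70 to 85 of Col9a3. Col9a2 had 125 reads in model library 1 and 0 in model libraries 2 and 3, where a count of 0 allows up to 3 reads, or 0.0364 and 0.145 FPKM. Such limits cover counting error only.

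In the model against control fit the log2 fold change was -4.52 (SE 1.32, adjusted p = 0.138) for Col9a1, -5.30 (SE 1.56, adjusted p = 0.140) for Col9a2 and -4.68 (SE 1.32, adjusted p = 0.128) for Col9a3. These lay below the -4.40 of Col2a1 on this scale, an order that did not hold after quantile normalization, where Col2a1 was at -6.52 and the 3 genes at -4.79, -5.37 and -5.11, nor on TPM for Col9a1 (-7.43 against -7.60). Col9a1 and Col9a3 stayed DEGs in 5 of 6 fits with a library left out, the exception being model library 2, without which the log2 fold changes were -4.06 and -4.11. Col9a2 also lost its call without model library 3 and with voom. Against the model, the SYD-H means were higher for all 3, with log2 fold changes of 1.97 (SE 1.35), 2.32 (SE 1.70) and 2.36 (SE 1.11), none a DEG and each with an adjusted p of 0.723. With all libraries kept, Col9a1, Col9a2 and Col9a3 were called in 0, 1 and 2 of 11 other settings. Without SYD-H library 3 all 3 were called, at 3.56, 4.03 and 3.57. The intervals of these differences were wide, from -1.77 to 6.40 for Col9a2, so that neither no change nor a large one could be told at this spread.

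Col10a1, the marker of hypertrophic cartilage (ENSRNOG00000051399, chromosome 20, 38182494 to 38189494), was at 674, 22.2 and 327 FPKM in the control libraries. It reached 48.0, 5.65 and 29.6 FPKM in the model and 30.9, 12.0 and 5.38 FPKM in the SYD-H libraries. Only SYD-H library 1 and model libraries 1 and 3 exceeded control library 2. The model against control log2 fold change of -3.00 (SE 1.39, adjusted p = 0.312) was not called, but was without control library 2, at -4.45, and in 4 of 11 other settings, on TPM (-6.17), with all 9 libraries in one fit (-3.00), with the replicate number as a block (-3.00) and with voom (-3.64). Col10a1 was the single DEG of the SYD-H against control comparison, lower at -3.64 (SE 1.34, adjusted p = 0.118 by limma), where 9.22% of all genes tested were lower DEGs. After adjustment 0 of 8 collagens passed 0.05 there, which 17.3% of all genes did. That call was lost without control library 1, control library 3, SYD-H library 2 or SYD-H library 3, with log2 fold changes from -5.09 to -2.66. Against the model Col10a1 stood at a log2 difference of -0.64 (SE 0.89, adjusted p = 0.822), and its sign turned to 0.99 on TPM.

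Col27a1 (ENSRNOG00000007657, chromosome 5, 76647429 to 76765174) was the least abundant collagen in the control libraries, at 29.6, 1.68 and 15.6 FPKM. It was at 4.55, 8.48 and 2.42 FPKM in the model and at 18.8, 14.8 and 11.2 FPKM in the SYD-H libraries. The 3 SYD-H libraries were close together, with a highest value 1.67 times the lowest, where the control libraries differed 17.6 times. The SYD-H against model log2 fold change was 1.47 (SE 0.46, adjusted p = 0.723). That call was lost without SYD-H library 1 or SYD-H library 2, with values from 1.11 to 1.84, with all 9 libraries in one fit, and on TPM at a log2 fold change of 2.69. In the model against control fit the log2 fold change was -0.97 (SE 0.94, adjusted p = 0.617), not a DEG.

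Compared with the control, the SYD-H means of log2(FPKM + 1) were lower for 7 collagens and higher for Col27a1, whose mean in FPKM was lower (14.9 beside 15.6), with a median log2 fold change of -2.43 beside 0 over all genes. The libraries of these groups overlapped for all 8 genes, where 22.2% of all genes tested were lower and 20.3% higher in every SYD-H library. The log2 value of Col2a1 was -3.38 (SE 1.54, adjusted p = 0.181), with Col9a2 at -2.98 (SE 1.91, adjusted p = 0.317) and Col11a2 at -0.82 (SE 0.91, adjusted p = 0.559). The value for Col11a1 was -0.79 (SE 1.13, adjusted p = 0.653), and 0.011 without control library 1. Col27a1 was at 0.50 (SE 0.89, adjusted p = 0.723), at -0.53 without control library 2 and at -0.87 on TPM. The 3 comparisons share libraries pairwise, so their values are not independent of each other.

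The number of collagens called turned on single libraries. For model against control it was 8 without control library 2, 4 without model library 1, 3 without control library 1 or control library 3, 2 without model library 3 and 0 without model library 2. For SYD-H against model it was 6 without SYD-H library 3, 2 without model library 2, 1 without model library 1, model library 3 or SYD-H library 2 and 0 without SYD-H library 1. For SYD-H against control it was 4 without control library 2, 1 without SYD-H library 1 and 0 without any of the other 4 libraries. The direction of all 8 model against control fold changes was kept in each of these fits. The share of all genes called in each fit is not given here, so these counts do not set the collagens apart from other genes.

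Ratios of collagens within a library do not depend on how libraries were scaled, and they were computed from reads per base. The RNA of the type IX genes kept similar ratios in the controls. Col9a1 was 0.996, 0.864 and 0.966 times Col9a2 in control libraries 1, 2 and 3, although their Col9a1 levels differed up to 41.5 times. In model library 1 the ratio was 0.371 (95% exact interval of the counts 0.268 to 0.509), and in model libraries 2 and 3 with 0 reads of Col9a2, it was 27.1 and 28.1 if Col9a2 is taken at 3 reads, and the exact intervals began at 21.6 and 22.5. SYD-H libraries 1 and 2 were at 1.07 and 1.30, and SYD-H library 3 was at 10.8 (interval 2.73 to 93.8) from 28 and 2 reads. The SYD-H ratios were all above the control ratios (exact permutation p = 0.1, the smallest that 3 against 3 libraries allow, adjusted p = 0.412 over 33 tests). Col9a1 to Col9a3, a ratio added after the values were seen, was 0.737, 0.640 and 0.683 in the controls, 0.550, 0.854 and 0.823 in the model and 0.770, 0.778 and 0.170 in the SYD-H libraries.

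**Figure D4:**
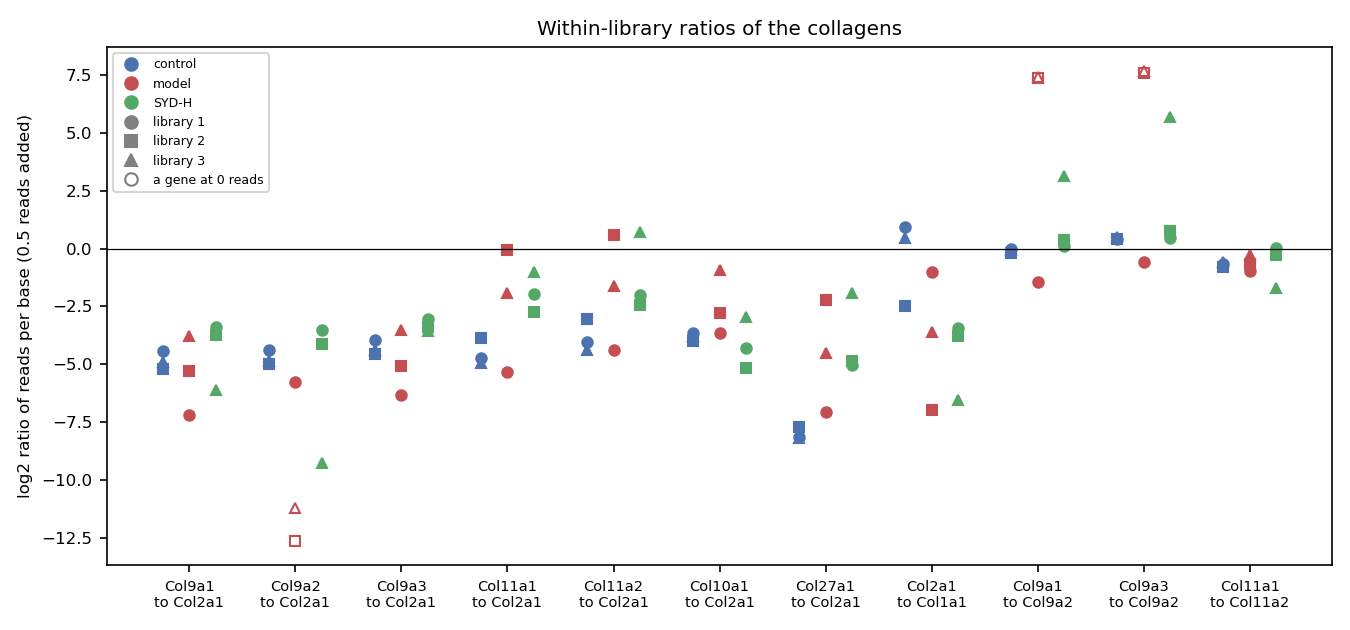
Log2 ratios of reads per base between collagens in each library, with 0.5 reads added to each gene. Colours are groups, symbols are library numbers and open symbols have a gene at 0 reads. Col9a2 to Col2a1 was below all controls in the 3 model libraries, and Col27a1 to Col2a1 was above all controls in the other 6 libraries.

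The share of each gene in collagen RNA also differed between libraries. Col2a1 made up 74.5%, 73.5% and 78.5% of the summed FPKM of the 8 collagens in control libraries 1, 2 and 3, and 83.6%, 25.7% and 43.0% in the model libraries. In the SYD-H libraries it made up 52.8%, 61.6% and 27.5%. The control shares were close together despite the low level of control library 2, whereas Col11a1 and Col11a2 reached 63.5% in model library 2 and 59.1% in SYD-H library 3. Col11a2 stood above Col2a1 in these libraries only, at 1.52 and 1.65 times Col2a1.

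**Figure D5:**
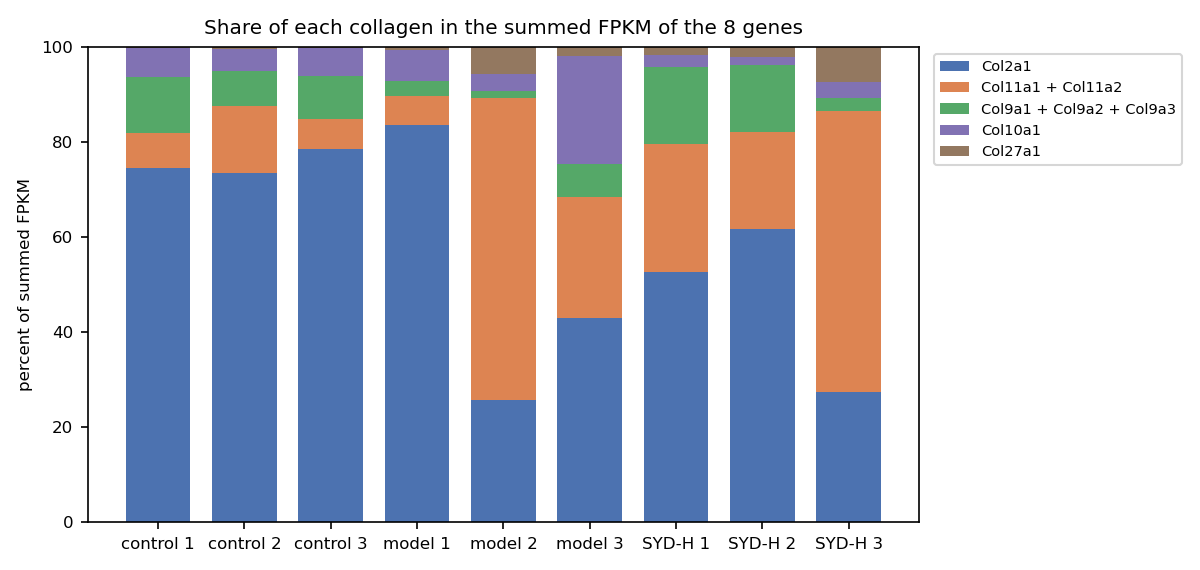
Share of Col2a1, type XI, type IX, Col10a1 and Col27a1 in the summed FPKM of the 8 collagens, as bars of 100% per library. Col2a1 takes 73.5% to 78.5% of the control bars and 25.7% to 83.6% of the model bars.

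Relative to Col2a1, Col27a1 was above all controls in each model library, a pattern of 17.5% of all genes tested, and Col9a2 was below all controls, a pattern of 0.108%. In the SYD-H libraries, Col9a3, Col11a1, Col11a2 and Col27a1 were above all controls relative to Col2a1, 4 of 7 collagens beside 24.3% of genes. The log2 differences were 0.97, 2.60, 2.57 and 4.07. Col2a1 relative to Col1a1, the main chain of bone and fibrous type I collagen, was 1.88, 0.178 and 1.39 in the control, 0.4999, 0.00788 and 0.0811 in the model and 0.0923, 0.0723 and 0.0106 in the SYD-H libraries. The SYD-H values of this ratio were all below the control values, so that Col1a1 relative to Col2a1 was above all controls like 24.3% of genes. Below all controls relative to Col2a1 were 0 of 7 collagens and 0.0360% of genes. No ratio of the 11 separated SYD-H from model, where 0.511% of genes were above and 0.964% below all model libraries relative to Col2a1, and no ratio passed an adjusted p of 0.05 in any comparison. Each separated ratio had an exact permutation p of 0.1.

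Col11a1 to Col11a2 was 0.57 to 0.67 in the controls, 0.51 to 0.81 in the model and 1.02, 0.825 and 0.304 in the SYD-H libraries, with a model minus control difference of 0.040 on the log2 scale (exact permutation p = 1). Col10a1 to Col2a1 stayed at 0.064 to 0.081 in the controls and ranged from 0.028 to 0.53 elsewhere.

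The expression pattern of Col2a1 over the 9 libraries was most like that of Col9a2 (Pearson r of log2(FPKM + 1) = 0.978, rank 1 of 13897 genes), followed outside the 8 collagens by Snorc (0.956), Crispld1 (0.953), Chadl (0.939), Xylt1 (0.927) and Tnrc18 (0.924). Snorc encodes a chondrocyte membrane proteoglycan, Chadl a small leucine-rich cartilage protein and Xylt1 the enzyme that starts glycosaminoglycan chains. Col9a3 ranked 5 (0.937), Col9a1 ranked 7 (0.926) and Col10a1 ranked 16 (0.906). Col11a1 ranked 189 (0.766), Col11a2 ranked 255 (0.747) and Col27a1 ranked 1855 (0.524). These values describe 9 libraries that share group and scaling.

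Other genes of the cartilage collagen pathway were read from 8 lists. Among all genes tested, 3.55% were higher and 11.2% lower DEGs in model against control, 3.62% and 0.532% in SYD-H against model and 7.25% and 9.22% in SYD-H against control. In model against control, 5 of 12 other cartilage matrix genes were lower DEGs and 0 higher. They were Hapln1, which ties aggrecan to hyaluronan, the matrilins Matn1 and Matn3, Cnmd and Mia, and Comp, among the most abundant of the list, had a log2 fold change of -0.57 (adjusted p = 0.836). Cytl1 had the highest mean of the list through SYD-H library 1 alone, at 1136 FPKM beside 1.27 to 17.5 FPKM elsewhere, and its log2 fold change was -0.26 (adjusted p = 0.899). In SYD-H against model the list had 0 DEGs, and in SYD-H against control 1 lower, Matn1. Of 11 regulators, Ihh and Sox6 were lower DEGs in the model, Sox5 was a higher DEG in SYD-H against model, and Runx2 was higher and Sox6 lower in SYD-H against control. Pth1r, Runx2 and Mef2c were the most abundant regulators. On TPM without mitochondrial genes 6 of 12 matrix genes and 4 of 11 regulators were lower DEGs in model against control, and after quantile normalization 6 and 1. On TPM with mitochondrial genes 11 matrix genes and 10 regulators were lower DEGs in model against control, where the median of all genes tested was itself below -1. In SYD-H against model 5 matrix genes were higher DEGs on that scale, where the other scales gave 0. There the median of all genes was raised, to above 1. The share of all genes called on that scale is not given here. Sox9, named for its role, was at 8.82, 0.492 and 5.29 FPKM in the control, 3.20, 2.30 and 1.04 FPKM in the model and 5.65, 1.41 and 0.710 FPKM in the SYD-H libraries, and its model against control log2 fold change was -0.57 (adjusted p = 0.722).

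A further list held 13 other collagens, among them the type VI chains Col6a1, Col6a2 and Col6a3. Its median log2 fold changes were -0.11 in model against control, 1.62 in SYD-H against model and 1.55 in SYD-H against control. Of these 13 collagens, 1 was a higher DEG in model against control (Col14a1), 1 in SYD-H against model (Col12a1) and 3 in SYD-H against control (Col3a1, Col5a2 and Col5a3), with 0 lower in each. Col1a1 and Col1a2, the most abundant, had SYD-H against control log2 fold changes of 0.83 (adjusted p = 0.471) and 0.84 (adjusted p = 0.338), and Col3a1, of reticular fibrils, one of 3.47 (adjusted p = 0.133). Of 10 genes on the degradation list, which holds enzymes and the metalloproteinase inhibitors Timp1, Timp2 and Timp3, 1 was a DEG in model against control (Mmp9, lower), 1 in SYD-H against model (Mmp9, higher) and 7 in SYD-H against control, 6 of them higher. Among these were Ctsk, the osteoclast collagenase, at 1.89 and Mmp13, which cuts type II collagen, at 2.21, beside Mmp2, Mmp3 and the inhibitors Timp1 (2.14) and Timp2 (1.12), and the lower one was Mmp8. In SYD-H against control, the higher DEGs among these 13 collagens and 10 degradation genes numbered 2 and 4 on TPM without mitochondrial genes, 3 and 5 after quantile normalization and 0 and 1 on TPM with mitochondrial genes. The medians were 1.57 and 1.24, 1.52 and 1.18, and 0.06 and -0.24 in that order, so that on the last scale the sign of the degradation median turned and that of the collagens did not. In model against control, the 13 collagens had 0 higher and 5 lower DEGs (median -3.07) and the degradation list 4 lower (median -2.82) on TPM with mitochondrial genes. The collagens had 0 DEGs without mitochondrial genes, and 1 higher and 2 lower after quantile normalization. In SYD-H against model, the higher DEGs of these collagens numbered 0 on TPM without mitochondrial genes and 3 both after quantile normalization and on TPM with them. The osteoclast marker list, which shares Ctsk and Mmp9 with the degradation list, had 4 of 6 higher DEGs in SYD-H against control, where TPM without mitochondrial genes gave 4, quantile normalization 3 and TPM with them 0, and 3 of 6 in SYD-H against model. In SYD-H against control, 4 of 6 endothelial markers were higher DEGs and 5 of 7 B cell, 5 of 7 tested neutrophil and 3 of 6 erythroid markers were lower DEGs. In model against control, 3 of 9 chondrocyte, 6 of 7 B cell and 4 of 7 tested neutrophil markers were lower DEGs beside the collagens. The 3 chondrocyte ones, Hapln1, Cnmd and Matn3, were already counted on the cartilage matrix list, which shares most chondrocyte markers. TPM with mitochondrial genes gave 0 higher and 1 lower endothelial and 7, 7 and 6 lower B cell, neutrophil and erythroid DEGs in SYD-H against control. In model against control it gave 8, 7 and 7 lower chondrocyte, B cell and neutrophil DEGs, and those of the osteoblast, erythroid and macrophage lists went from 1, 0 and 0 to 8, 6 and 7. In both comparisons the median log2 fold change of all genes tested was itself below -1 on this scale. Its lower counts, of markers, collagens or degradation genes, are thus set against a shift of all genes, whose share called is not given here.

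Of 20 genes of hydroxylation, folding and crosslinking, led by Serpinh1, Ppib and P4hb, 0 were DEGs in model against control, 1 was higher in SYD-H against model (P3h3) and 0 in SYD-H against control. Of 5 tested propeptide cleavage genes, Pcolce and Bmp1 were higher DEGs in SYD-H against control and 0 were DEGs in the other comparisons. Of 6 tested collagen receptors, Ddr2 was a higher DEG in the model, Itga10 in SYD-H against model, and Itga10, Itga11 and Ddr2 in SYD-H against control. Of 7 hypertrophic cartilage genes, Ihh was a lower DEG in the model, Panx3 a higher one in SYD-H against model and Spp1 and Mmp13 higher ones in SYD-H against control, where Col10a1 was lower. Genes of this list are shared with others, Mmp13 with the degradation list, Ibsp with the osteoblast list and Ihh and Pth1r with the regulators. Among the 20 hydroxylation, folding and crosslinking genes, 0 were lower DEGs in model against control on TPM without mitochondrial genes and after quantile normalization, and 18 were on TPM with them. The median of all genes tested was itself below -1 in model against control on TPM with them, so that lower counts there are not particular to a list. The cleavage, receptor and hypertrophic lists had 2, 3 and 2 higher DEGs in SYD-H against control on the first of these scales and on the second, and 0 on the third. In model against control on the third, the receptors had 0 higher and 4 lower DEGs, and the cleavage and hypertrophic lists 2 and 5 lower ones. In SYD-H against model on the third, the receptors and the 20 hydroxylation, folding and crosslinking genes had 0 DEGs. DEGs named here beyond the 3 most abundant of each list were chosen after their values were seen.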

How the data were processed

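RNA from knee cartilage of 9 libraries in 3 groups was sequenced. Per the labels the tissue is cartilage, although the extraction text also mentions retinas. The authors deposited FPKM per gene. The submitters' processing notes list HISAT2 2.0.5 and hg38, a human build, while the gene identifiers are those of rat. The counter, the annotation and the rat build are not given in the sources used here. The gene length column of the deposited table was used to recover reads (100% of values were whole within 0.1).

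Genes whose FPKM averaged 0.5 or more over the libraries were fitted with limma 3.58.1 (R 4.3.3; lmFit, eBayes with trend, two-sided) on log2(FPKM + 1), a scale that understates changes of low genes, using the 6 libraries compared. DEGs passed 0.05 before adjustment and moved by over 1 on the log2 scale. Adjusted p-values are Benjamini–Hochberg over all genes tested. The limma steps were tested on simulated data. The 11 ratios were tested by two-sided exact permutation, with 0.5 reads added to each gene. Named genes were the 8 collagens, the 3 most abundant of each pathway list and the 5 genes most like Col2a1. The collagens and lists were chosen with earlier results of these data known. Alternatives were pseudocounts of 0.1 and 0.01, no filter or a mean FPKM of at least 1, TPM with and without mitochondrial genes, quantile normalization, all 9 libraries in one fit, robust eBayes, the replicate number as a block, voom on recovered reads and each library left out. Group sizes of 3 were too small for an outlier test.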

Additional observations from a re-analysis of the deposited data

How the results depend on the processing

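Each fold change was recomputed under 11 alternatives and with each library left out. In model against control, all 8 directions were kept throughout. The count of DEGs among the 8 collagens ranged from 0 to 8 with a library left out in model against control, from 0 to 6 in SYD-H against model and from 0 to 4 in SYD-H against control, each from fewer samples. With all libraries kept, model against control had 4 to 8 DEGs, with 4 at a pseudocount of 0.01 or no filter and 8 on TPM. On TPM the median log2 fold change of all genes in that comparison was itself -2.60. The share of all genes called is not given for the alternative and left-out fits, so these counts do not set the collagens apart. With all 9 libraries in one fit, SYD-H against model had 0 DEGs. SYD-H against control had 2 with that fit, 2 on TPM, 2 after quantile normalization and 2 with voom. Signs turned on TPM for Col10a1 in SYD-H against model (0.99) and Col27a1 in SYD-H against control (-0.87), and with a library left out in SYD-H against control for Col27a1 (-0.53 to 1.23) and Col11a1 (-1.82 to 0.011), and the cause was not tested. TPM moved the median log2 fold change of all genes from -0.23 to -2.60, from 0.22 to 1.22 and from 0 to -1.31 in the 3 comparisons. Relative to it the collagen median went from -3.48 to -4.21, from 1.32 to 1.85 and from -2.43 to -2.58. The TPM values of the gene lists were added after seeing the data. With the replicate number as a block there were 5, 2 and 1 DEGs beside 6, 2 and 1 without the block. The numbers showed no pairing, since same-numbered libraries correlated at -0.27 to 0.19 and 1 of 9 matched its own number best. The 8 ratio differences between groups that did not overlap kept their sign when 1 read was added or a library left out, and no p is given for these since so few libraries cannot pass 0.05. Model libraries 1 and 3 had the fewest reads in genes that are not mitochondrial, so that 1 read was worth the most FPKM there. Col9a2 had 125 reads in model library 1 and 0 in model libraries 2 and 3. The part of depth in these counts was not tested.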
